A study of Mus musculus with 11 samples.

Results

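The genes described here are the mouse Zfp genes, zinc finger genes named only by Zfp and a number, in cardiac fibroblasts with and without Pw1 after myocardial infarction. They were chosen by name and identifier, as the rows of the expression table with such a symbol and a gene ID that begins with 10, and no measured value was used beyond the request for a value in every library. The table as held here had 1293 genes, of which 17 met the rule by name. A value in every library was present for 16 of these 17 and for 1141 of all genes; Zfp980 was blank in 2 CKO libraries. The fibroblasts came from injured left ventricles of mice 3 days after infarction (MI), and their poly(A) RNA was sequenced. The control group had 6 libraries: the genotype label of controls 1 to 3 reads wild type, Pw1fl/+ or Pw1fl/fl, and that of controls 4 to 6 reads Pw1 fl/fl. The conditional knockout (CKO) group had 5 libraries, labelled Pdgfra-Cre;Pw1fl/fl for CKO 1 to 3 and PDGFRa Cre+;Pw1 fl/fl for the other 2. Both groups had been infarcted, and the Cre is named for Pdgfra, a receptor gene active in fibroblasts and in some other mesenchymal cells. The wordings divide the libraries into 2 label sets: set 1 holds controls 1 to 3 and CKO 1 to 3, and set 2 holds controls 4 to 6 and the 2 remaining CKO libraries. The columns of those 2 libraries match no replicate number in the labels. Set 2 was the one with CKO samples left over, so these columns went there, under the names CKO a and CKO b. The labels do not say how many animals gave each library, so p-values measure the spread between libraries, which may be technical.

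In a classical C2H2 zinc finger, a pair of cysteines and a pair of histidines hold a zinc ion and fold a short loop of protein that reads a few bases of DNA. Proteins with many such fingers in a row can recognise long DNA sequences. In many Zfp proteins of the mouse the fingers follow a KRAB domain, which recruits the corepressor Trim28 and, through it, the histone methyltransferase Setdb1 and the NuRD complex. KRAB zinc finger genes lie in clusters of recent copies, and in mice the deletion of whole clusters, among them ones on chromosomes 2 and 4, derepressed retrotransposons. Pw1 itself, also named Peg3, is an imprinted gene, expressed from the paternal copy, whose product is a C2H2 zinc finger protein. Peg3 was not among the genes held, so the deletion was not analysed here at the RNA level.

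The 17 genes lay on 7 chromosomes, with 6 on chromosome 4 and 4 on chromosome 2 (positions from the RefSeq gene table of GRCm38.p6). A KRAB pattern was found in the coding sequence of 10 of the 17. The pattern is strict, and a gene without a match can still encode a KRAB domain. The number of C2H2 finger patterns ran from 16 in Zfp850 and 15 in Zfp534 to 2 in Zfp993 and in Zfp831, and none was found in Zfp957. The coding sequence used for Zfp993, of 940 nt, is not a whole number of codons and is therefore incomplete. Its finger count and its last finger below hold for that sequence only. The last finger of 9 genes is shown because it displays which of them are copies of each other. These are coding sequences of GENCODE M21 on GRCm38, 5′ to 3′ on the coding strand, with the codons of the zinc-binding cysteines and histidines in capitals. The first 5 come from chromosome 4, the next pair from chromosome 2, and the last pair from chromosomes 5 and 6.
Zfp984: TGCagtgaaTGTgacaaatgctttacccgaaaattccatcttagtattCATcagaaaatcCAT
Zfp990: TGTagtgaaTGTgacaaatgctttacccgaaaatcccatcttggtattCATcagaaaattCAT
Zfp993: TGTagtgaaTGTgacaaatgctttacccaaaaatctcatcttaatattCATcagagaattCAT
Zfp534: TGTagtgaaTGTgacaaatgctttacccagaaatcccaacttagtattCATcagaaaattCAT
Zfp981: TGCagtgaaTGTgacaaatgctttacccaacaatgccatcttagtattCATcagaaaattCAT
Zfp965: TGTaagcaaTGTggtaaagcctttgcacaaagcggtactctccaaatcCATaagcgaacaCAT
Zfp967: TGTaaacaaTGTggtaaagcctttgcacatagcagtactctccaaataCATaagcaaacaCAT
Zfp513: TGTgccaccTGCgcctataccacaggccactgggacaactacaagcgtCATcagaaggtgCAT
Zfp282: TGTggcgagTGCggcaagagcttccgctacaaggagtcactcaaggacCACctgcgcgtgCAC

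Over their aligned coding sequences, Zfp965 and Zfp967 were 98.7% identical. On chromosome 4, Zfp984 was 92.9% identical to Zfp993, 91.8% to Zfp990 and 91.2% to Zfp534, and Zfp980 was 89.1% identical to Zfp981. A read from such copies can belong to more than one of them. Of all stretches of 50 nt in the transcripts of Zfp967, 100% also occurred in transcripts of another gene, and the share was 96.3% for Zfp965, 86.8% for Zfp993, 71.3% for Zfp980, 68.4% for Zfp534, 54.5% for Zfp984, 40.02% for Zfp981 and 29.1% for Zfp990. In the other 9 genes it was at most 6.61%, and in Zfp513, Zfp282, Zfp692 and Zfp831 it was 0. The values of the first 8 genes are therefore uncertain as to which copy the RNA came from. The deposited counts are estimates that divide shared reads between such copies.

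Recovered library totals ran from 20576582 to 20874835 reads in the 9 libraries matched to a sample, and the genes held took 2.86% to 3.06% of these. Totals of CKO a and CKO b were not recovered, and their sizes were estimated from their 535048 and 542843 reads on the genes held. None of the 12 fibroblast markers listed was among the genes held, so the cell type was not checked here. Of the markers of other cells, 1 of 7 macrophage and monocyte genes and 2 of 5 erythroid genes were held, and all 3 were higher in CKO libraries in TMM-scaled CPM. CPM is used here for reads per gene scaled to library size times the TMM factor of the library. The monocyte gene Ly6c2 was at 56.7 to 76.3 CPM in control and 77.2 to 221 CPM in CKO libraries. The haemoglobin gene Hbb-bs was at 1.46 to 3.25 and 8.93 to 29.7 CPM, and Hbb-bt at 0 to 0.523 and 0.561 to 1.81 CPM. Their part in the results below was not tested, and in bulk RNA fewer cells of a type and less RNA per cell cannot be told apart.

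Per unit of transcript length, Zfp513 was the most abundant member. Its FPKM (fragments scaled to transcript length and library size) was 21.4 ± 2.09 (SD, n = 6) in control libraries, with 18.2 as the lowest value and 23.7 as the highest. Zfp282 at 4.54 ± 0.329, Zfp120 at 4.41 ± 0.503, Zfp984 at 3.41 ± 0.323 and Zfp692 at 3.36 ± 0.637 FPKM followed. The control ranges of Zfp282 and Zfp120 overlapped, as did those of Zfp984 and Zfp692, while the lowest value of Zfp120, 3.80, was just above the highest of Zfp984, 3.77. Zfp967 at 2.41 ± 0.99, Zfp990 at 1.41 ± 0.1503, Zfp956 at 1.12 ± 0.221 and Zfp850 at 1.01 ± 0.126 FPKM came next, each overlapping its neighbour in this order. Zfp965, Zfp981, Zfp534, Zfp993 and Zfp575 had control means of 0.197 to 0.425 FPKM with overlapping ranges. Zfp980 had a mean of 0.0367 FPKM, Zfp957 of 0.00833, and Zfp831 was listed at 0. In CKO 1 to 3 the order of the top differed: Zfp513 stood at 33.0 ± 3.18 FPKM (SD, n = 3), Zfp984 at 7.67 ± 0.272, Zfp692 at 4.12 ± 0.510, Zfp120 at 3.02 ± 0.0624 and Zfp282 at 2.29 ± 0.1501.

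**Figure D1:**
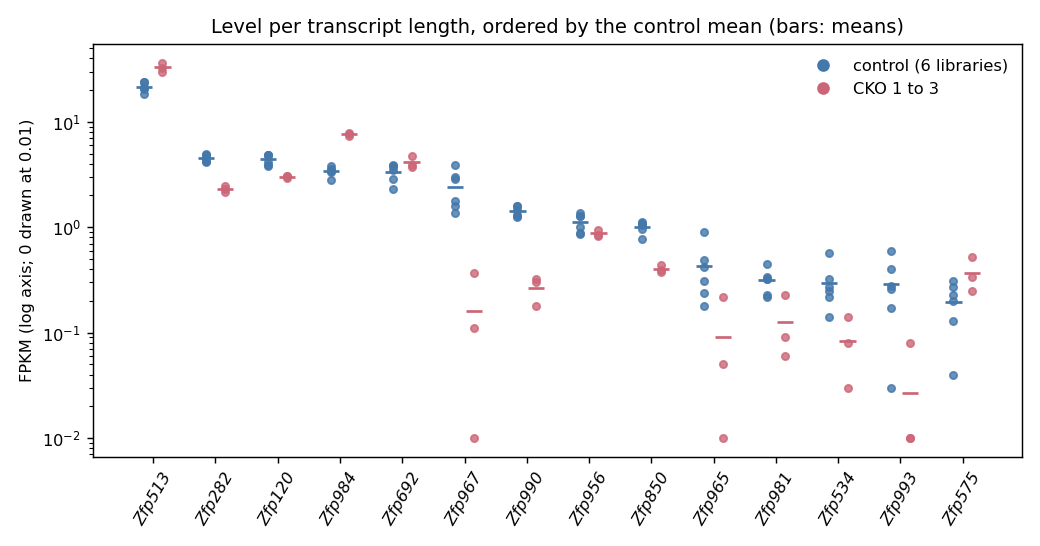
Level per transcript length (FPKM, log axis, with 0 drawn at 0.01) of the 14 tested Zfp genes in the 6 control libraries (blue) and CKO 1 to 3 (red); each point is a library and each bar a group mean. Zfp513 lies above all others, the control points of Zfp282 and Zfp120 overlap, and so do those of Zfp984 and Zfp692.

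Expression was compared between the groups with edgeR's quasi-likelihood test on the rounded counts, with TMM scaling, the label set as a covariate and Benjamini-Hochberg adjustment over all 770 genes tested. A gene was called at an adjusted p under 0.05, and changes are log2 of CKO over control. Of the 16 genes with a value in every library 14 passed the filter on low counts. Zfp831 had at most 1 read and Zfp957 at most 3.05 reads in any library, and neither was tested. Of the 14, 9 were called (64.3%), 4 as higher and 5 as lower in CKO fibroblasts, where 71.4% of all tested genes were called, 34.0% as higher and 37.4% as lower. The share of Zfp genes called was thus near that of all genes, and the count by itself is no result about them. Their median change was -0.23, beside -0.06 for all genes, and -0.55 without CKO a, beside -0.04. Control and CKO libraries did not overlap in TMM-scaled CPM for 8 of the 14, beside 56.4% of all genes. The TMM factors were 1.11 to 1.14 in control and 0.772 to 0.947 in CKO libraries. A lower factor gives a higher CPM, so CKO values are raised over control values compared with scaling to library size alone.

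Zfp984, a KRAB zinc finger gene with 11 fingers (gene ID 100041677, chromosome 4, 147753974 to 147812229), rose in all CKO libraries. It had 9.30, 11.2 and 11.8 CPM as the lowest, median and highest control values, and 27.4, 24.98, 24.1, 37.7 and 31.8 CPM in CKO 1, 2, 3, a and b. The lowest CKO library was above the highest control library in both sets. The change was 1.42 (SE 0.11, adjusted p = 1.1e-06 in edgeR), from 10.96 ± 0.946 (SD, n = 6) to 29.2 ± 5.61 CPM (SD, n = 5), or 2.67-fold. Its call held under every alternative scaling, filter and left-out library. Of its 50-nt stretches 46.9% recur in the predicted gene Gm13212, which was not among the genes held.

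Zfp513 (101023, chromosome 5, 31198981 to 31202663), whose human counterpart ZNF513 is mutated in a recessive form of retinitis pigmentosa, was the member with most reads. Control libraries had 33.1 CPM as the lowest value, 40.1 as the median and 46.5 as the highest, and CKO 1, 2, 3, a and b had 81.3, 65.2, 68.8, 81.7 and 73.5 CPM. The groups did not overlap. It rose by 0.88 (SE 0.10, adjusted p = 1.5e-05 in edgeR), from 40.2 ± 4.80 to 74.1 ± 7.37 CPM. On the scale of TPM (a gene's share of the library's transcripts) the change over 9 libraries was 0.07 (log2 of TPM + 1, adjusted p = 0.42 in limma), so the call was lost on that scale, while with recovered totals over the same 9 libraries the change was 0.44 and still called (adjusted p = 0.0018 in edgeR).

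Zfp692 (103836, chromosome 11, 58307057 to 58315145), whose human counterpart binds a promoter element responsive to the AMPK activator AICAR, had 4.09, 6.22 and 6.83 CPM as the lowest, median and highest control values. CKO 1, 2, 3, a and b had 7.92, 9.53, 7.80, 10.4 and 10.1 CPM, all above every control. It rose by 0.66 (SE 0.15, adjusted p = 0.0025 in edgeR) with TMM scaling, but its sign turned with TPM, to -0.28 (adjusted p = 0.12 in limma on log2 of TPM + 1). Its call was also lost with TMM over the 9 libraries without CKO a and CKO b (0.43, adjusted p = 0.052 in edgeR), with recovered totals over those libraries (0.11, adjusted p = 0.60) and with the length trend removed (0.33, adjusted p = 0.072). Zfp692 overlaps Zfp672 in the annotation, and the labels do not say whether the libraries keep the strand.

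Zfp575 (101544, chromosome 7, 24583838 to 24587840), with 6 fingers and no KRAB pattern, was the least abundant member that rose. Its control libraries had 2.21 to 14 reads and its CKO libraries 12.2 to 29.0 reads. In CPM the lowest, median and highest control values were 0.0852, 0.472 and 0.594, against 1.26, 0.969, 0.612, 1.67 and 1.91 in CKO 1, 2, 3, a and b. On that scale the CKO libraries were higher, with CKO 3 just above the highest control. In FPKM the groups overlapped, with CKO 3 at 0.25 and controls 1 and 2 at 0.27 and 0.31. The change with TMM scaling was 1.59 (SE 0.41, adjusted p = 0.0047 in edgeR). The gene overlaps Ethe1, a mitochondrial sulfur dioxygenase gene. Without CKO a and CKO b the change of Zfp575 was 0.87 and not called (adjusted p = 0.13 in edgeR on 9 libraries). With recovered totals over the same 9 libraries it was 0.55 and not called (adjusted p = 0.32 in edgeR).

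**Figure D2:**
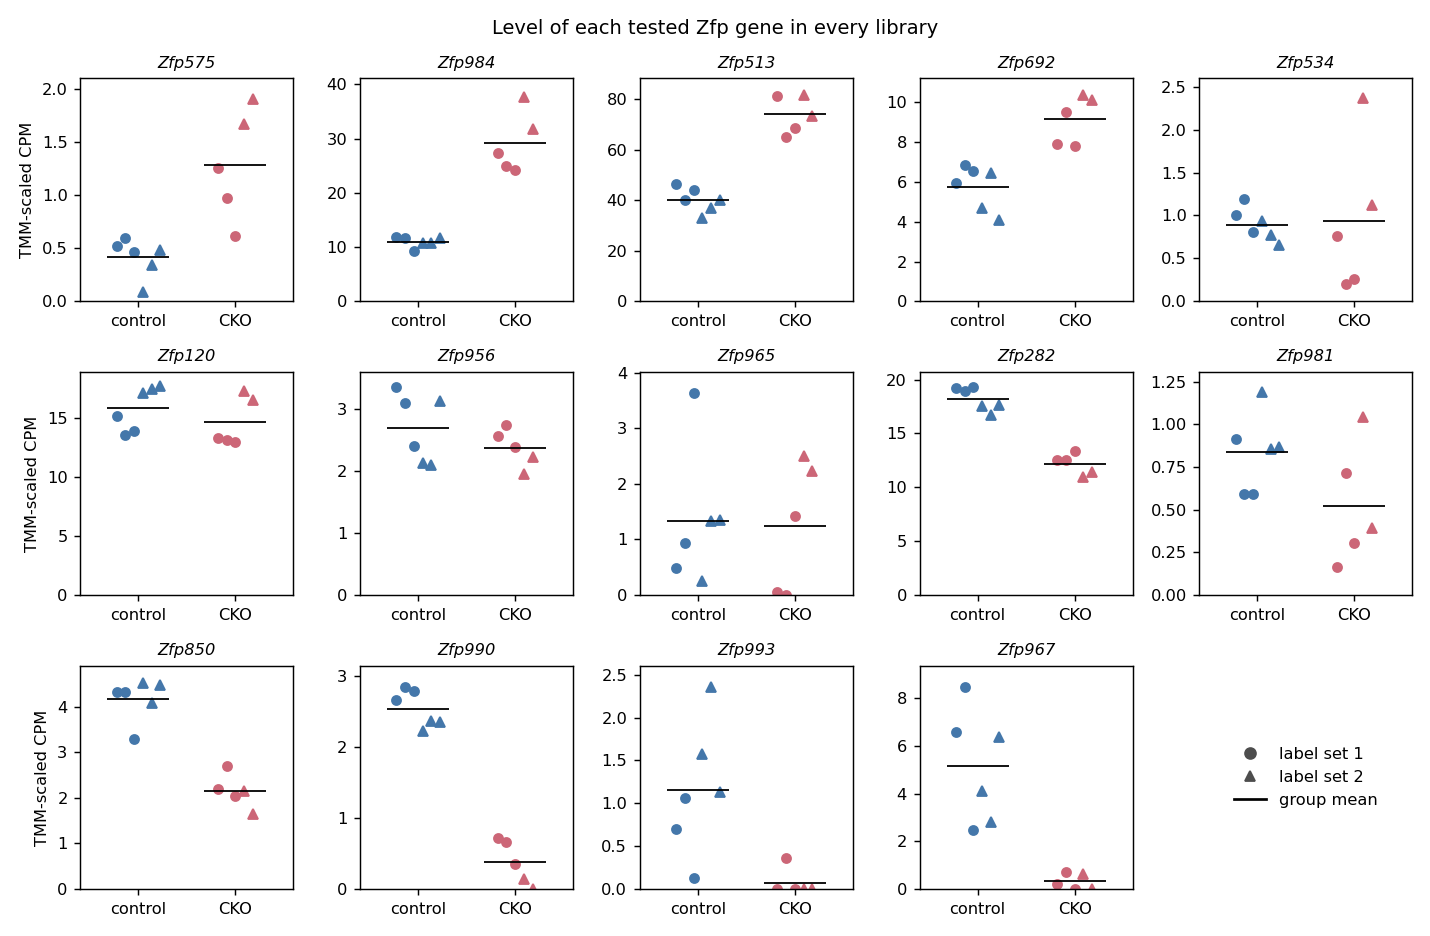
TMM-scaled CPM of each of the 14 tested Zfp genes in all 6 control (blue) and 5 CKO (red) libraries, with circles for label set 1, triangles for label set 2 and a line at each group mean; every axis starts at 0. The groups are apart in the panels of Zfp575, Zfp984, Zfp513, Zfp692, Zfp282, Zfp850, Zfp990 and Zfp967, where the direction of Zfp692 is the one under TMM and turns with TPM. In FPKM the groups of Zfp575 and of Zfp692 overlap.

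Zfp967, a KRAB zinc finger gene with 11 fingers (100303732, chromosome 2, 176521004 to 176533821), was lower in all CKO libraries. The lowest, median and highest control values were 2.45, 5.26 and 8.49 CPM, and CKO 1, 2, 3, a and b had 0.218, 0.714, 0, 0.626 and 0 CPM. Counts were 58.3 to 200.03 reads for the controls, against 0 to 13.7 reads with CKO. All CKO libraries were below all controls, and the controls varied widely among themselves. The change was -4.06 (SE 0.67, adjusted p = 2.4e-04 in edgeR), with -4.20 in set 1 and -3.83 in set 2. The call held under every alternative scaling, filter and left-out library.

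Zfp965 (100503949, chromosome 2, 175470025 to 175480553), a near copy of Zfp967, behaved otherwise. Control values ran from 0.256 over a median of 1.13 to 3.64 CPM, the highest in control 3, and CKO 1, 2, 3, a and b had 0.0546, 0, 1.43, 2.50 and 2.24 CPM. The groups overlapped, and the change was -0.25 (SE 0.91, adjusted p = 0.81 in edgeR). The predicted gene Gm14440, which holds 35.1% of the 50-nt stretches of Zfp967 and 39.6% of those of Zfp965, changed by -0.73 (SE 0.18, adjusted p = 0.0035 in edgeR), from 3.72 ± 1.02 to 2.11 ± 0.481 CPM. Zfp973, which was not among the genes compared, holds 83.2% of the stretches of Zfp965. In control 3, Zfp967 had its lowest control value while Zfp965 had its highest. How far the estimated division of reads between these copies sets each value was not tested.

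Zfp990, with a KRAB pattern and 13 fingers (101056073, chromosome 4, 145510759 to 145538251), had an even level in control libraries. The lowest, median and highest control values were 2.21, 2.51 and 2.84 CPM, and CKO 1, 2, 3, a and b had 0.710, 0.663, 0.357, 0.139 and 0 CPM. The CKO libraries were well below all controls, and CKO a and CKO b lowest. The change was -2.86 (SE 0.41, adjusted p = 8.6e-05 in edgeR). In set 2 the CKO libraries together had 2 reads against 160 in the controls, which after scaling is 2.95% of the control level (exact 95% interval 0.354% to 10.8%, counting error only).

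Zfp993, a KRAB zinc finger gene with 2 finger patterns in its incomplete coding sequence (100503000, chromosome 4, 146512849 to 146991471), was at 0 in 4 of the 5 CKO libraries and at 0.357 CPM in CKO 2. Control values ran from 0.127 over a median of 1.10 to 2.36 CPM. Control 3, with 3.09 reads, was below CKO 2, with 7.36 reads, so the groups overlapped. The change was called at an adjusted p of 0.0061 in edgeR. In set 2, where both CKO libraries were at 0, the control mean of 1.69 CPM was at least 8.09-fold higher than the floor of 3 reads in a library (0.209 CPM). The annotated span of Zfp993 overlaps 16 other genes, Zfp981 and Rex2 among them. Its call was lost in the 9 libraries without CKO a and CKO b (adjusted p = 0.085 in edgeR).

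Zfp850, with a KRAB pattern and 16 fingers (100043772, chromosome 7, 27984471 to 28014210), had 3.30, 4.32 and 4.51 CPM as the lowest, median and highest control values. CKO 1, 2, 3, a and b had 2.18, 2.70, 2.04, 2.16 and 1.64 CPM, all below the controls. It fell by 0.96 (SE 0.15, adjusted p = 1.4e-04 in edgeR), from 4.17 ± 0.454 to 2.15 ± 0.379 CPM. It stayed called as lower under every alternative, but with the length trend removed the change was -0.36 (adjusted p = 0.028 in edgeR); its effective length was 4627 nt.

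Zfp282 (101095, chromosome 6, 47877209 to 47908485), whose human counterpart was found to bind a repressive element of the long terminal repeat of a human T-cell leukaemia virus, varied little within groups. Control values were 16.7, 18.3 and 19.3 CPM at the lowest, median and highest, and CKO 1, 2, 3, a and b had 12.5, 12.5, 13.4, 10.99 and 11.4 CPM. The groups did not overlap. It fell by 0.60 (SE 0.06, adjusted p = 7.8e-06 in edgeR), from 18.2 ± 1.06 to 12.2 ± 0.949 CPM. With the trend on transcript length removed, the change was -0.02 and not called (adjusted p = 0.83 in edgeR); its effective length was 4515 nt.

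The remaining 5 tested genes were not called, and of these Zfp120 was the most abundant. Zfp120, a KRAB zinc finger gene with 9 fingers (104348, chromosome 2, 150114407 to 150136678), had 15.8 ± 1.84 CPM in control and 14.6 ± 2.09 CPM in CKO libraries, a change of -0.08 (SE 0.06, adjusted p = 0.25 in edgeR). Its values lay apart by label set: they were 13.5 to 15.2 CPM in controls 1 to 3 and 12.9 to 13.3 in CKO 1 to 3, but 17.1 to 17.7 in controls 4 to 6, with CKO a at 17.3 and CKO b at 16.5. That difference between sets was not tested. Zfp956, a neighbour of Zfp282 on chromosome 6 (101197, 47953390 to 47965300), had 2.70 ± 0.556 and 2.38 ± 0.309 CPM, a change of -0.21 (SE 0.15). Zfp981 (100041433, chromosome 4, 146502000 to 146539395) had 0.837 ± 0.225 and 0.524 ± 0.354 CPM, a change of -0.64 (SE 0.37, adjusted p = 0.14 in edgeR). Rex2, a held gene that shares 28.5% of the 50-nt stretches of Zfp981, changed by -1.64 (SE 0.56, adjusted p = 0.021 in edgeR).

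Zfp534, with a KRAB pattern and 15 fingers (100503584, chromosome 4, 147674225 to 147702631), moved in opposite directions in the label sets. Control values ran from 0.653 over a median of 0.870 to 1.19 CPM, and CKO 1, 2, 3, a and b had 0.764, 0.204, 0.255, 2.37 and 1.12 CPM. CKO 1 to 3 were lower than controls 1 to 3, and CKO a and CKO b higher than controls 4 to 6. In the model that gives each label set its own change, its change was -1.30 in set 1 (adjusted p = 0.033 in edgeR) and 1.13 in set 2 (adjusted p = 0.047 in edgeR). Over both sets the change was -0.08 (SE 0.49) and not called. It rests on few reads, 4.19 to 33.6 in the CKO libraries.

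A difference of the change between the sets was called for 2 of the 14 Zfp genes, Zfp534 and Zfp990, beside 41.9% of all genes. For Zfp534, subtracting the set 1 change from the set 2 change gave 2.43 (SE 0.67, adjusted p = 0.014 in edgeR). For Zfp990 it was -2.72 (SE 0.73, adjusted p = 0.012 in edgeR), a larger fall in set 2. Zfp534 and Zfp990 share sequence with each other. Of the short transcript stretches of Zfp534, 17.4% also occur in Zfp990. The share of those of Zfp990 that occur in Zfp534 is 12.6%. How far the estimated division of shared reads enters these opposite differences was not tested. Set 2 has only 2 CKO libraries for both differences. The difference of Zfp534 was 1.80 without CKO a and 2.85 without CKO b. That of Zfp990 was -1.77 without CKO b. Each of these fits leaves 1 CKO library in set 2, so it cannot show whether the difference rests on the library left out. Without CKO a, set 2 has 1 CKO library, at 0 for Zfp990, so no size is given for that difference. Within set 1, 7 of the 14 were called, 2 as higher and 5 as lower, beside 65.6% of all genes (31.8% higher and 33.8% lower). Within set 2, 10 of the 14 were called, 5 as higher and 5 as lower, beside 74.3% (35.1% higher and 39.2% lower). The sign was the same in both sets for 12 of the 14, the exceptions being Zfp534 and Zfp965. Zfp965 changed by -1.74 in set 1 and 1.27 in set 2, neither called. The described genotype of the controls and the libraries themselves both differ between the sets and cannot be told apart.

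**Figure D3:**
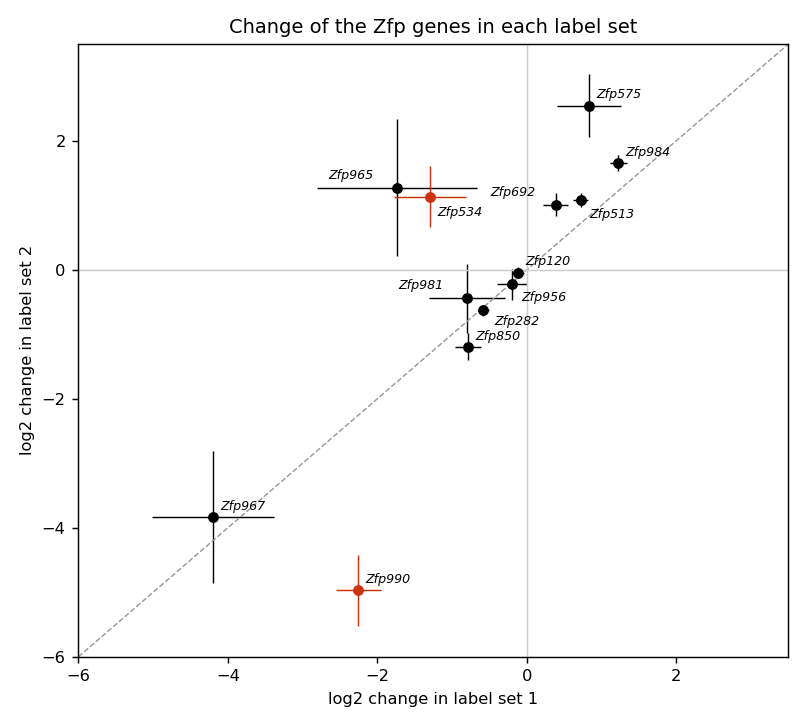
Log2 change of CKO over control in label set 1 (horizontal axis) and set 2 (vertical axis) for 13 of the 14 tested Zfp genes, with bars of 1 SE and a dashed line of equal change; red marks the 2 genes called for a difference. Zfp993 is left out because both CKO libraries of set 2 were at 0. Zfp534 and Zfp965 lie at the upper left, with opposite signs in the sets, and Zfp692, shown as higher in both, turns sign with TPM over 9 libraries.

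The 6 genes of chromosome 4 lie between 145510759 and 147812229 and did not move together. Beside the counts that follow, 71.4% of all tested genes were called, 34.0% as higher and 37.4% as lower, with a median change of -0.06. Of the 5 tested, Zfp984 rose, Zfp990 and Zfp993 fell, and Zfp981 and Zfp534 were not called. Zfp980 (100041379, 145670697 to 145704437), blank in CKO a and CKO b, had 0 to 8.67 reads in control libraries and 4.47 to 6.58 reads in CKO 1 to 3 and was not tested. Among the 7 tested genes that share over 25% of their 50-nt stretches with other genes, 1 rose and 3 fell, with a median change of -0.64, and among the other 7, 3 rose and 2 fell, with a median of -0.08. Of the 9 tested genes with a KRAB pattern, 5 were called, 1 as higher (Zfp984) and 4 as lower (Zfp967, Zfp990, Zfp993 and Zfp850). Of the 5 without a match to that pattern, 4 were called, 3 as higher (Zfp513, Zfp692 and Zfp575) and 1 as lower (Zfp282). The split is by pattern only and does not show which of these genes lack a KRAB domain. These counts were not tested against each other, and Zfp692 and Zfp282 are among the calls that a change of scaling or a correction for length ended.

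The region just upstream of the start was also alike between some of these copies. In the RefSeq promoter table of GRCm38.p6, the sequence before the start of Zfp967, which fell, differs from that of Zfp965, which was not called, at 1 of 236 compared bases, shown in capitals. The sequence shown has 250 bases, and those not compared are also in lower case.
Zfp967 (chr2:176520754-176521003, plus strand): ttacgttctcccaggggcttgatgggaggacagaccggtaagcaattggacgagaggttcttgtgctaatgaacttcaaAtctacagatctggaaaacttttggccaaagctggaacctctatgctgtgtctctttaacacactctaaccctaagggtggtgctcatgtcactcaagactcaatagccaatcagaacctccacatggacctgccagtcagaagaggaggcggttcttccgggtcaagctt

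On chromosome 4, a block of 91 bases without a gap could be aligned upstream of a listed start of Zfp984, Zfp981, Zfp534 and Zfp980. For Zfp984 and Zfp981 that start lies inside the gene span given above, so their blocks are within the gene. The block is shown because Zfp984 was called among these neighbours while Zfp981 and Zfp534 were not. Capitals mark bases that differ from Zfp984, of which there are 11 in Zfp981, 18 in Zfp534 and 19 in Zfp980.
Zfp984 (chr4:147809837-147809927, minus strand): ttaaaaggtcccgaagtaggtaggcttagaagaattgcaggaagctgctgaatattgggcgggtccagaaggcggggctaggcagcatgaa
Zfp981 (chr4:146514772-146514862, plus strand): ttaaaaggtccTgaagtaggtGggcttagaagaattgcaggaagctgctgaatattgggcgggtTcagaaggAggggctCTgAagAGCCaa
Zfp534 (chr4:147702632-147702722, minus strand): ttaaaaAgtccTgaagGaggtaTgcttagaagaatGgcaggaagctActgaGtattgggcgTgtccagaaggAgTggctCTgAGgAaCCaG
Zfp980 (chr4:145670571-145670661, plus strand): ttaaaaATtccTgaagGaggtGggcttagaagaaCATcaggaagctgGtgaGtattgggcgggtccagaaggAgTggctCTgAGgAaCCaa

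A promoter window, 250 bases before to 50 after a listed start, was found for 14 of the 17 genes. Some of these starts, as in Zfp984, Zfp981 and Zfp282, lie inside the gene span. The letters CCAAT, on either strand, stood in the windows of 10 of the 14, among them Zfp984, Zfp513, Zfp282, Zfp120, Zfp965 and Zfp967, and in 37.4% of 32544 promoters. GGGCGG, on either strand, stood in 6 of the 14 (Zfp282, Zfp513, Zfp956, Zfp980, Zfp981 and Zfp984) and in 35.9% of all promoters. TATAAA, on either strand, was in none of the 14 and in 13.6% of all promoters. A match is a description of these letters only.

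Changes over all genes followed transcript length. Of the tested genes with an effective length over 4000 nt, 144 of 196 fell and 13 rose, with a median change of -0.73, and of those under 2000 nt, 28 of 247 fell and 145 rose, with a median of 0.67. Of the 4 Zfp genes over 4000 nt, Zfp282, Zfp850 and Zfp993 fell and Zfp120 was not called. After a loess correction for length, 7 of 13 Zfp genes were called, beside 69.8% of all genes. Zfp984 had a change of 1.78, Zfp513 of 0.66, Zfp990 of -3.13, Zfp967 of -4.15 and Zfp850 of -0.36. Zfp120 then turned to 0.39 (adjusted p = 0.0011 in edgeR). How length enters the difference between the groups was not tested.

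The size of a change also depended on the scaling. The median over all genes was -0.32 with recovered totals as the scaling and -0.60 with limma on log2(TPM + 1), both over 9 libraries, beside -0.06 with TMM over 11. With recovered totals the change of Zfp984 was 0.94, of Zfp513 0.44, of Zfp282 -0.86 and of Zfp850 -1.06, each still called. Zfp120, at -0.39 with recovered totals and -0.73 with TPM, was called as lower with both, close to the shift of the median itself.

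**Figure D4:**
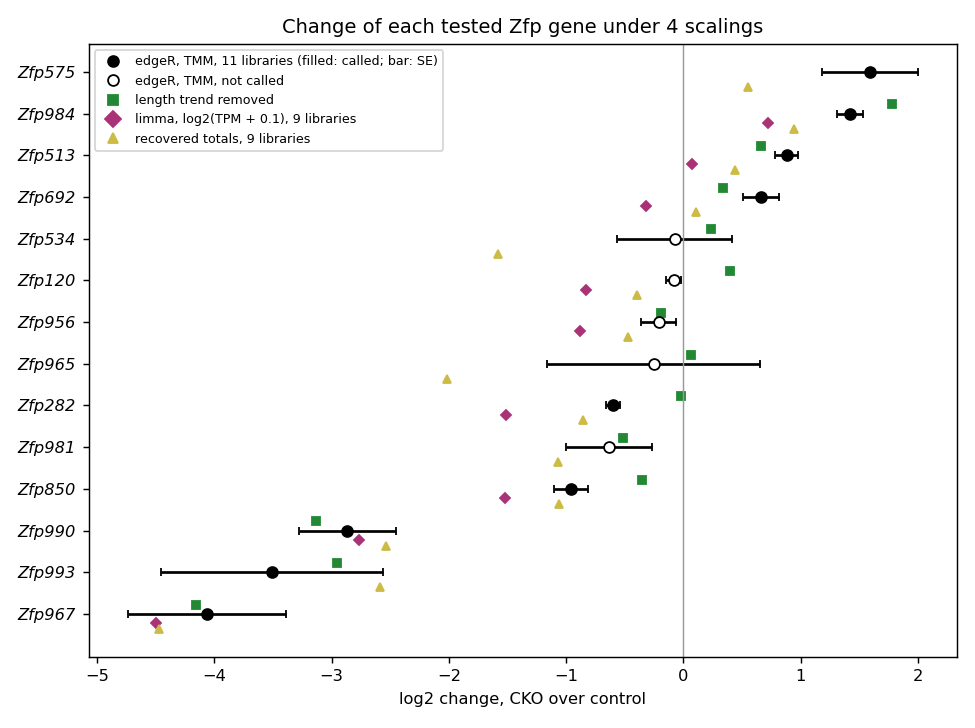
Log2 change of CKO over control for the 14 tested Zfp genes: black circles with SE bars are edgeR with TMM over 11 libraries (filled where called), green squares have the length trend removed, purple diamonds are limma on log2(TPM + 0.1) and yellow triangles use recovered totals, both over 9 libraries. Zfp984, Zfp967 and Zfp990 are filled and keep their side of 0 in all 4, while Zfp692 crosses 0 with TPM, and Zfp120, Zfp965 and Zfp534 cross it with the length trend removed.

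Other genes of the zinc finger families were listed for comparison. The symbols of 7 genes matched those of other C2H2 families or lettered Zfp names, and whether each encodes such fingers was not checked. Of these 7, 6 were tested and 5 called, 2 as higher and 3 as lower, beside 71.4% of all genes called (34.0% higher and 37.4% lower). Zbtb48, which encodes a telomere-binding zinc finger protein, rose by 1.03 (SE 0.13), from 8.37 ± 0.876 to 17.1 ± 3.22 CPM, and Zfp119a rose by 0.78 (SE 0.14). Zfp518b fell by 1.35 (SE 0.14), from 11.2 ± 0.797 to 4.46 ± 1.06 CPM, Prdm11 fell by 1.27 (SE 0.22) and Zfp955b fell by 0.54 (SE 0.09). Zfp729b was not called and Zkscan16 was not tested. Of the KRAB corepressor partners, Chd4, a helicase of the NuRD complex, was the 1 gene held. It fell by 1.01 (SE 0.08, adjusted p = 1.8e-06 in edgeR), from 244 ± 40.2 to 129 ± 35.7 CPM. No gene of the list of the Pw1 locus and its partners was held. Of 10 genes with other zinc-binding domains, 7 were called, 2 as higher and 5 as lower, a share near the 71.4% of all genes, with a median change of -0.38 beside -0.06. The largest changes were those of Zmym6 at -1.50 (SE 0.21), Zc3h7a at -1.41 (SE 0.38), Rnf44 at -1.15 (SE 0.28) and Rnf216 at -0.84 (SE 0.11), all lower in CKO fibroblasts.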

How the data were processed

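The deposited table gives TPM, FPKM and expected counts (estimated reads per gene, 73.72% not whole) for each library, per the file headers. Per the submitters' processing notes, GRCm38 was the genome and RSEM, Bowtie2 and DESeq2 were used; versions are not given in the sources used here. The deposited TPM is relative to all transcripts of a library; the deposited FPKM is relative to fragments and length. The table was held in part, in the text order of gene IDs, and 4 TPM and FPKM columns that match no single sample were not used.

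Rounded counts entered edgeR 4.0.16 (R 4.3.3): genes kept by filterByExpr, TMM scaling, and a 2-sided quasi-likelihood F test of group beside label set. Benjamini-Hochberg adjustment covered all 770 genes. A second model, with separate means by group and set, gave the change in each set and the test of their difference. SEs were derived from the F statistic; SDs are over libraries, of TMM-scaled CPM. Counts, FPKM and GENCODE M21 transcript lengths gave the library totals (control 1: 108 genes, 95% interval 20492496 to 20846106 reads). A floor of 3 reads limits what low genes can show.

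Alternatives were DESeq2 1.42.0, recovered totals, limma 3.58.1 on log2(TPM + 1 or 0.1) for genes with a TPM of at least 1 in at least 3 libraries, a loess offset on effective length (span 0.5), no set term, a replicate block, no filter, at least 20 reads in every library of a group, either set by itself and every library omitted in turn. TMM over the 9 libraries with a total was added after seeing the data. The steps were tested on simulated data. C2H2 patterns (2 cysteine and 2 histidine codons in their usual spacing) and KRAB patterns were counted at codon level in GENCODE M21 coding sequences in place of a protein table, coding identity came from blastn 2.17.0 and promoter blocks were aligned with mafft 7.526.

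The members and lists were chosen with earlier results of these data known. Named are up to 8 rises and 8 falls among called members with the same sign in both sets and an average log2 CPM of at least 0, the 4 tested members with most control FPKM, up to 4 members called with opposite signs in the sets, and up to 4 called members of each of 4 lists. Zfp575, Zfp993, Zfp956, Zfp965 and Zfp981 fall outside this rule and are given so that every member is accounted for, as are Zfp119a, which completes its list, and Gm14440 and Rex2, chosen after their values were seen.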

Additional observations from a re-analysis of the deposited data

Results flagged for a closer look

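In control 3, Zfp850 had 3.30 CPM, below the 4.08 to 4.51 CPM of the other controls (the gap is 0.640 of the range of the group). In the same library Zfp965 had 3.64 CPM, above the 0.256 to 1.35 CPM of the others (0.676 of the range). Zfp993 had 0.357 CPM in CKO 2 and 0 in the other 4 CKO libraries, so the gap is the whole range (1). These 3 come from 28 groups of libraries looked at, where chance flags about 1 group in 20. That rate does not hold for a group such as Zfp993 in CKO, where all libraries but 1 are at 0 and the gap is 1 whatever the value. The change of Zfp990 differed between the label sets by -2.72 and that of Zfp534 by 2.43 (set 2 minus set 1), both tested in the edgeR model that gives each set its own change. Zfp990 and Zfp534 share sequence with each other, and the part of the division of shared reads in these differences was not tested.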

How the results depend on the processing

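Zfp984, Zfp967, Zfp990 and Zfp850 kept direction and call under all alternatives. Zfp692 reversed to -0.28 and -0.32 with limma on log2(TPM + 1) and log2(TPM + 0.1), Zfp120 to 0.39 with the length trend removed and Zfp534 to 1.14 in set 2 alone. The median change of the members was -0.96 with recovered totals and -0.64 with TMM over the same 9 libraries, beside -0.32 and -0.002 for all genes. With the 2 TPM pseudocounts it was -0.73 and -0.88 over 9 members, beside -0.60 and -0.73 for all genes. In set 1 alone it was -0.59 over 13 members, beside -0.02 for all genes. DESeq2 gave a difference between the sets for 4 of 14 members, Zfp513, Zfp984, Zfp990 and Zfp534. The filter of at least 20 reads gave it for 4 of 9, Zfp513, Zfp984, Zfp692 and Zfp990, with Zfp534 not tested. The shares over all genes under these settings are not given here. Over the left-out libraries, calls among members ran from 8 to 9, calls over all genes from 521 to 564 and the median from -0.55 (without CKO a) to -0.14. Differences between the sets were called for up to 5 members (without CKO 1). Zfp993 was not tested without control 1, 2, 4, 5 or 6, which accounts for each count of 8. The replicate block of set 1 gave 530 calls over all genes and 9 among members. Deviations of same-numbered libraries from the mean of their group and set correlated at 0.103, 0.055 and 0.227. The numbers were not taken as pairs. Libraries with different numbers were not compared, so these correlations cannot show whether the numbers mark pairs. The causes were not tested. TPM left 5 members under its minimum, and set differences were not fitted with recovered totals or TPM, since CKO a and CKO b have neither here. Genes under about 1 CPM rest on few reads.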
